A study of Mus musculus with 7 samples.

Results

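The SREBP programme of sterol and lipid synthesis was described through 34 genes picked by symbol from pathway knowledge. These genes were picked with earlier results of these data known. They cover mevalonate and isoprenoid synthesis (8 genes), the path of squalene to cholesterol (11), sterol sensing, regulation and transfer (6), fatty acid synthesis (6) and acyl-CoA use (3). Of the 55417 gene symbols in the count table, all 34 had a row, and 33 passed the low-count filter that left 13329 genes for testing. The member that did not pass was Thrsp, a lipogenic regulator of liver and fat, with 1 count in each of the 4 libraries carrying a Dpep2 hairpin and 0 counts in each of the 3 control libraries, which is too few to compare.

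Expression was measured by RNA sequencing in RAW264.7, a tumour line of mouse macrophages. There were 2 libraries with hairpin shDpep2.968, 2 with hairpin shDpep2.759 and 3 with the control hairpin, shNT. Both Dpep2 hairpins are directed at Dpep2, which encodes a membrane dipeptidase that cleaves leukotriene D4, and every group carried a hairpin. The labels do not say how the hairpins were delivered, whether a population was a clone or a pool, or whether each replicate was its own culture. The p-values therefore reflect the scatter among these libraries alone, which may be technical.

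SREBP transcription factors are made as precursors that Scap and the Insig proteins hold in the membrane of the endoplasmic reticulum. When membrane sterol is low, Scap carries the precursor to the Golgi, where proteases release the part that enters the nucleus and binds sterol regulatory elements, often beside NF-Y at CCAAT boxes. The product of Srebf2 mainly drives sterol synthesis and uptake and that of Srebf1 mainly fatty acid synthesis. Macrophages take up large amounts of lipoprotein cholesterol, and sterol loading turns this programme down.

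Total counts ran from 16548648 to 18401060 per library. Levels are given in CPM, a gene's counts scaled to the same library total after TMM normalisation. Dpep2 had 22.4 and 17.9 CPM under shDpep2.968, 24.9 and 19.5 CPM under shDpep2.759, and 55.6, 60.3 and 52.1 CPM in the shNT libraries. Over both hairpins it fell by 1.41 on the log2 scale (edgeR adjusted p = 8.07e-05). The 10 macrophage markers summed to 15000 to 20700 CPM in the hairpin libraries and 14300 to 15700 CPM in the shNT libraries, most of it Lyz2. Averaged over both hairpins, 2 of the 9 tested ones rose and none fell, against 3.44% of all tested genes called higher and 4.15% lower. Mertk was not tested, at 0.347 CPM or less in every library. Adgre1 had 145 and 155 CPM under shDpep2.968, 252 and 265 CPM under shDpep2.759, and 128 to 141 CPM with shNT. Averaged over both hairpins its log2 fold change was 0.57 (edgeR adjusted p = 0.00397). Taken alone, shDpep2.759 passed (0.96, adjusted p = 0.000455) and shDpep2.968 did not (0.17, adjusted p = 0.387). The hairpins differed for Adgre1 when tested directly (adjusted p = 0.0164). Its averaged call was lost with all hairpin libraries as 1 group and with the replicate number as a block. Fcgr1 had 368 to 562 CPM with the Dpep2 hairpins and 250 to 300 CPM with shNT (log2 fold change 0.59, edgeR adjusted p = 0.0161), a call lost on removal of shDpep2.968 replicate 2 and likewise of shNT replicate 2 or 3. With shDpep2.759 alone Fcgr1 passed (0.77, edgeR adjusted p = 0.0112), and with shDpep2.968 alone it did not (0.41, adjusted p = 0.137). Itgam went the other way under shDpep2.968, at 896 and 846 CPM against 1100 to 1340 CPM with shNT. Its log2 fold change there was -0.48 (edgeR adjusted p = 0.0581), and 0.08 with shDpep2.759 (adjusted p = 0.812). Of markers of other cell types, Epcam, Krt18, Krt19, Cd3e, Col1a2, Adipoq, Lep, Alb, Apoa1 and Ttr had 0 counts in every library. The 8 fibroblast markers summed to 2.20 to 3.69 CPM with the Dpep2 hairpins and 0.786 to 1.86 CPM with shNT. Of these, Dcn rose 2.58-fold (edgeR adjusted p = 0.0274), a call lost when any 1 library except shDpep2.759 replicate 2 was left out. By hairpin, the fold change of Dcn was 1.67 with shDpep2.968 (adjusted p = 0.289) and 3.98 with shDpep2.759 (adjusted p = 0.00778). The 8 lymphocyte markers summed to 1.56 to 4.04 CPM with the Dpep2 hairpins and 3.20 to 3.78 CPM with shNT, most of it Cd79a. The 5 epithelial markers and the 8 adipocyte and hepatocyte markers summed to under 1 CPM in every library. The 6 neutrophil markers summed to 34.1 to 237 CPM with the Dpep2 hairpins and 17.3 to 33.7 CPM with shNT, nearly all of it S100a8, and Ly6g and Ltf had 0 counts. S100a8 had 33.9 and 49.5 CPM under shDpep2.968 and 236 and 99.8 CPM under shDpep2.759. Averaged over both hairpins it did not pass the threshold (edgeR adjusted p = 0.0899). Mitochondrially encoded RNA made up 1.91% to 2.67% of counts with the Dpep2 hairpins and 1.41% to 3.22% with shNT. The 3 nuclear long noncoding RNAs Malat1, Neat1 and Kcnq1ot1 summed to 417 to 821 CPM with the Dpep2 hairpins and 786 to 907 CPM with shNT. Among them Neat1 had 143 to 360 CPM with the hairpins and 377 to 422 CPM with shNT (log2 fold change -0.80, edgeR adjusted p = 0.0544), and it passed the threshold in 9 of 17 alternative fits. The part of these differences in the results below was not tested. In bulk RNA, fewer cells of a kind and less RNA per cell cannot be told apart.

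Most of the programme was lower with the Dpep2 hairpins. Averaged over both hairpins against shNT, 19 of 33 tested members fell, none rose and 14 did not pass the test (quasi-likelihood test in edgeR, with p adjusted over all 13329 genes by Benjamini-Hochberg and a threshold of 0.05). Over all tested genes 4.15% were called lower and 3.44% higher. As the members were picked with earlier results known, these shares are set beside the member counts without a test. The median log2 fold change of the 33 members was -0.59, against 0.00 over all tested genes, and 30 of the 33 were below 0. All 4 hairpin libraries lay below all 3 shNT libraries for 19 members, which was so for 9.51% of tested genes, and above them for no member, against 9.03% of tested genes. These 19 included 18 of the called members and Sqle. The called member whose groups overlapped was Acss2. Together the 34 genes took 0.186% to 0.212% of counts in the hairpin libraries and 0.262% to 0.292% in the shNT libraries, ranges that do not overlap.

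**Figure D1:**
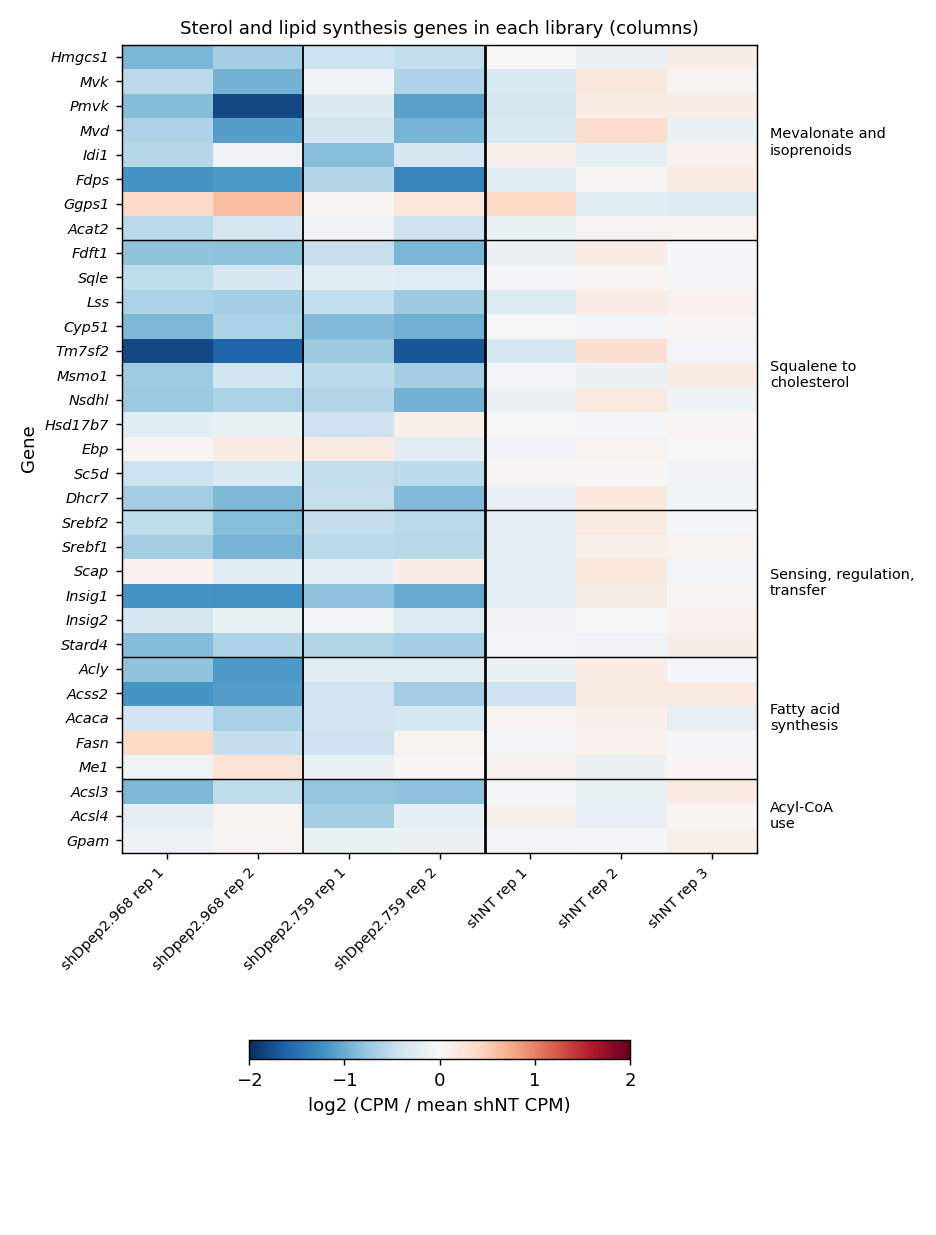
Each cell is a gene's log2 ratio of CPM in 1 library to its mean CPM in the 3 shNT libraries, with 4 Dpep2 hairpin libraries on the left and 3 shNT libraries on the right, genes ordered by pathway step. Most rows are blue in all 4 hairpin libraries, with Tm7sf2, Fdps and Insig1 among the darkest, while Ebp, Scap, Me1 and Gpam stay pale.

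Mevalonate and isoprenoid genes were lower in 3 of 8 cases and higher in none. Hmgcs1, which condenses acetyl-CoA units into HMG-CoA, had 29.0 and 34.1 CPM in shDpep2.968 libraries, 40.5 and 38.7 CPM in shDpep2.759 libraries, and 54.0, 50.3 and 58.8 CPM under shNT. Mvd, which makes isopentenyl diphosphate, had 20.0 and 14.3 CPM under shDpep2.968, 23.8 and 16.1 CPM under shDpep2.759, and 24.8, 39.1 and 27.8 CPM in the shNT libraries. Fdps, the farnesyl diphosphate synthase, had 111 and 114 CPM in shDpep2.968 libraries, 167 and 99.4 CPM in shDpep2.759 libraries, and 218, 259 and 279 CPM under shNT. In each of these genes every hairpin library was below every shNT library, by a wide margin for Fdps and narrowly for Mvd. Hmgcs1 fell by 0.62 on the log2 scale (SE 0.11, edgeR adjusted p = 0.00425), Mvd by 0.73 (SE 0.19, adjusted p = 0.0468) and Fdps by 1.04 (SE 0.16, adjusted p = 0.00296), which left Fdps at 48.6% of the control level. The Mvd call depended on 4 libraries, being lost on removal of replicate 2 of any group or of shNT replicate 3.

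The other 5 genes of this step did not pass the test. The mevalonate kinase Mvk and the phosphomevalonate kinase Pmvk had log2 fold changes of -0.52 and -0.95, with libraries of the groups overlapping. Pmvk varied widely within groups, with 10.6 and 5.53 CPM under shDpep2.968, 15.9 and 9.08 CPM under shDpep2.759, and 15.3, 21.4 and 21.3 CPM in the shNT libraries. Idi1, which isomerises isopentenyl diphosphate, was at -0.43, and Acat2, which supplies acetoacetyl-CoA, at -0.33. Ggps1, which extends farnesyl to geranylgeranyl diphosphate for protein prenylation, was the one gene of the step on the other side, at 0.31 (95% interval -0.04 to 0.66). It had 27.5 and 32.2 CPM in shDpep2.968 libraries, 21.8 and 24.4 CPM in shDpep2.759 libraries, and 27.8, 18.1 and 17.5 CPM under shNT, and shNT replicate 1 lay within the hairpin range. Without that library Ggps1 passed the threshold as higher (log2 fold change 0.56, adjusted p = 0.0312).

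From squalene to cholesterol, 8 of 11 genes fell and none rose. Fdft1, the squalene synthase that commits farnesyl diphosphate to sterols, had 21.0 and 20.8 CPM under shDpep2.968, 26.8 and 19.6 CPM under shDpep2.759, and 33.8, 40.7 and 35.8 CPM in the shNT libraries. Lss, which cyclises squalene epoxide to lanosterol, had 37.5 and 36.5 CPM in shDpep2.968 libraries, 41.4 and 35.3 CPM in shDpep2.759 libraries, and 48.3, 64.2 and 62.0 CPM under shNT. Cyp51, the lanosterol demethylase, had 30.8 and 37.0 CPM under shDpep2.968, 31.1 and 29.2 CPM under shDpep2.759, and 56.7, 55.1 and 59.6 CPM in the shNT libraries. The shNT values of Cyp51 lay close together and the highest hairpin library was far below them. Fdft1 fell by 0.74 on the log2 scale (SE 0.13, edgeR adjusted p = 0.00429), Lss by 0.63 (SE 0.12, adjusted p = 0.00768) and Cyp51 by 0.84 (SE 0.11, adjusted p = 0.000683).

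Tm7sf2, a sterol reductase acting after Cyp51, had the lowest fold change among the members. It stood at 2.20 and 2.53 CPM in shDpep2.968 libraries, 4.66 and 2.34 CPM in shDpep2.759 libraries, and 6.04, 9.64 and 7.38 CPM under shNT. Its log2 fold change was -1.42 (95% interval -1.94 to -0.89, SE 0.24, edgeR adjusted p = 0.00398), which is 37.5% of the control level. These levels rest on 38 to 83 counts in the hairpin libraries and 100 to 176 counts in the shNT libraries, the fewest of any tested member.

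The demethylation enzymes Msmo1 and Nsdhl, which remove methyl groups from sterol intermediates, were also lower. Msmo1 had 42.8 and 53.2 CPM under shDpep2.968, 48.8 and 44.0 CPM under shDpep2.759, and 67.4, 64.9 and 78.0 CPM in the shNT libraries. Nsdhl had 15.4 and 16.6 CPM in shDpep2.968 libraries, 17.1 and 13.4 CPM in shDpep2.759 libraries, and 23.8, 29.3 and 24.0 CPM under shNT. Msmo1 fell by 0.57 on the log2 scale (SE 0.11, edgeR adjusted p = 0.00943) and Nsdhl by 0.72 (SE 0.13, adjusted p = 0.00569).

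Of the last enzymes, Sc5d, a sterol desaturase, had 26.0 and 28.4 CPM under shDpep2.968, 24.7 and 24.2 CPM under shDpep2.759, and 36.2, 35.3 and 33.2 CPM in the shNT libraries. Dhcr7, the reductase of 7-dehydrocholesterol, had 27.3 and 23.8 CPM in shDpep2.968 libraries, 32.1 and 23.9 CPM in shDpep2.759 libraries, and 39.5, 51.2 and 41.7 CPM under shNT. Neither gene had a hairpin library within the shNT range. Sc5d fell by 0.44 on the log2 scale (SE 0.11, edgeR adjusted p = 0.0256) and Dhcr7 by 0.72 (SE 0.14, adjusted p = 0.00669).

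The remaining 3 genes of the step did not pass. The squalene epoxidase Sqle had a log2 fold change of -0.33 (95% interval -0.53 to -0.12, edgeR adjusted p = 0.0536), with 67.0 to 82.7 CPM in the hairpin libraries and 93.1 to 99.7 CPM in the shNT libraries. Hsd17b7, a sterol ketoreductase, was at -0.15 (95% interval -0.43 to 0.12). Ebp, the sterol isomerase, was at 0.04 (95% interval -0.21 to 0.30), with 28.2 to 36.9 CPM in the hairpin libraries around 31.1 to 34.2 CPM in the shNT libraries. Among the 8 called genes of the step, 3 lost the call when 1 library was left out. Lss lost it without shNT replicate 2 or 3 and Msmo1 without shNT replicate 3. Sc5d lost it without shDpep2.968 replicate 1 or 2 or without any one of the 3 shNT libraries.

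**Figure D2:**
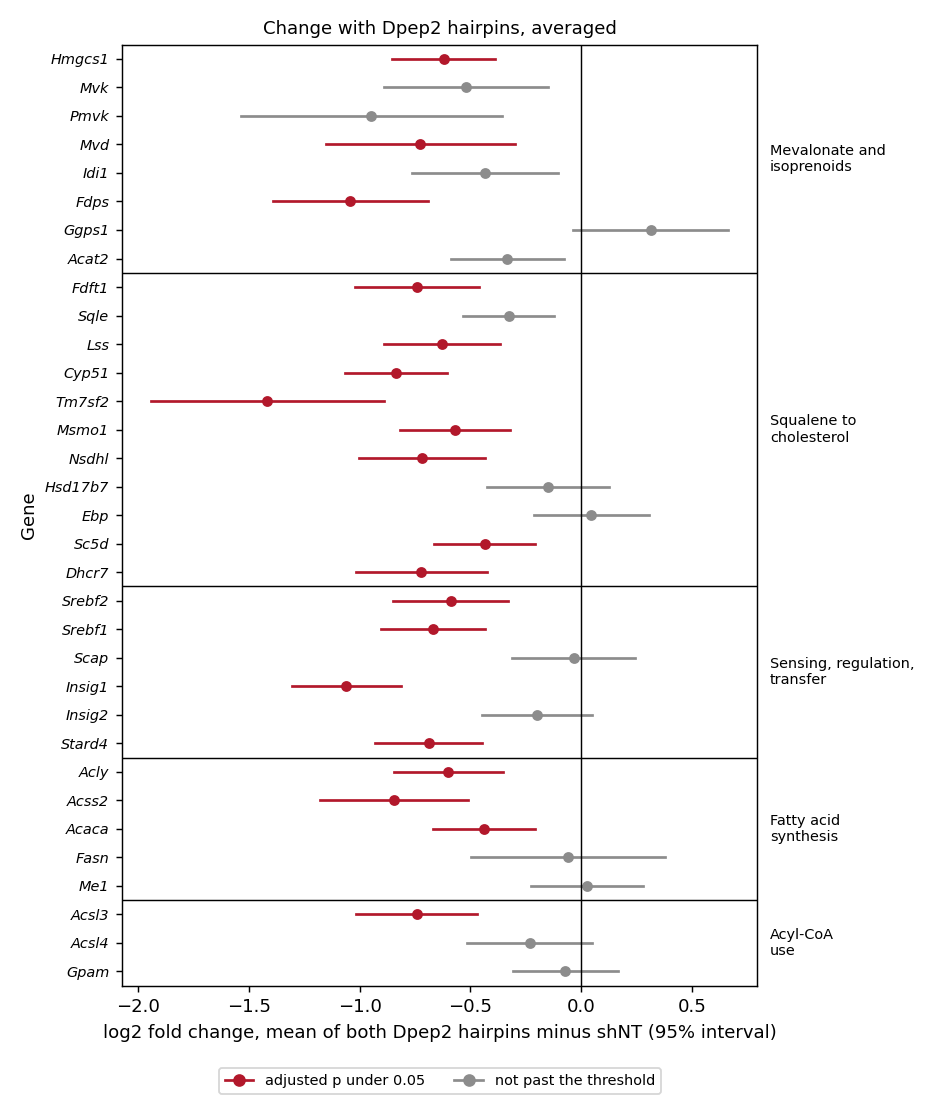
Points are log2 fold changes of the mean of both Dpep2 hairpins minus shNT for the 33 tested members, with 95% intervals from the edgeR fit, in red where the adjusted p was under 0.05. All 19 red points lie left of 0, from -0.44 to -1.42, and the 14 grey ones run from -0.95 to 0.31.

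Among the sensors and regulators, 4 of 6 genes fell: both transcription factor genes, Insig1 and Stard4. Srebf2 had 188 and 148 CPM under shDpep2.968, 193 and 185 CPM under shDpep2.759, and 237, 305 and 263 CPM in the shNT libraries. Srebf1 had 94.7 and 79.1 CPM in shDpep2.968 libraries, 104 and 103 CPM in shDpep2.759 libraries, and 133, 162 and 158 CPM under shNT. All hairpin libraries were below all shNT libraries for both. Srebf2 fell by 0.59 on the log2 scale (SE 0.12, edgeR adjusted p = 0.0103) and Srebf1 by 0.67 (SE 0.11, adjusted p = 0.00288). The Srebf2 call was lost without shNT replicate 2 or 3. Gene counts do not separate the Srebf1 transcripts that start at different promoters. The ratio of Srebf1 to Srebf2 CPM was 0.503 to 0.557 in the hairpin libraries and 0.530 to 0.603 in the shNT libraries, overlapping ranges.

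Of the Insig pair, 1 gene passed the test. Insig1, which retains Scap when sterol is plentiful and is itself a target of the SREBPs, had 23.6 and 23.2 CPM under shDpep2.968, 30.4 and 26.9 CPM under shDpep2.759, and 47.0, 58.7 and 56.2 CPM in the shNT libraries. Its log2 fold change was -1.06 (95% interval -1.31 to -0.81, SE 0.11), with an edgeR adjusted p of 0.000241, the smallest of any member, and its level was 48.0% of the control. Insig2, its paralog with the same retention role, had 22.6 and 25.6 CPM in shDpep2.968 libraries, 27.4 and 23.5 CPM in shDpep2.759 libraries, and 27.0, 28.2 and 30.2 CPM under shNT. Its log2 fold change was -0.20 (95% interval -0.45 to 0.05, adjusted p = 0.332), and hairpin and shNT libraries overlapped. The 2 intervals of the fold change do not overlap. The ratio of Insig1 to Insig2 CPM was 0.906 to 1.14 in the hairpin libraries and 1.74 to 2.09 in the shNT libraries. Their longest annotated transcripts both have 2697 bases, but counts per gene do not show which transcripts were present.

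Stard4, which carries sterol between membranes through the cytosol, had 24.3 and 28.8 CPM under shDpep2.968, 29.1 and 27.6 CPM under shDpep2.759, and 42.6, 42.0 and 48.0 CPM in the shNT libraries. It fell by 0.69 on the log2 scale (SE 0.11, edgeR adjusted p = 0.00298). Scap, the escort of the SREBPs, was at -0.03 (95% interval -0.31 to 0.24), with 87.5 to 111 CPM in the hairpin libraries and 89.1 to 117 CPM in the shNT libraries.

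**Figure D3:**
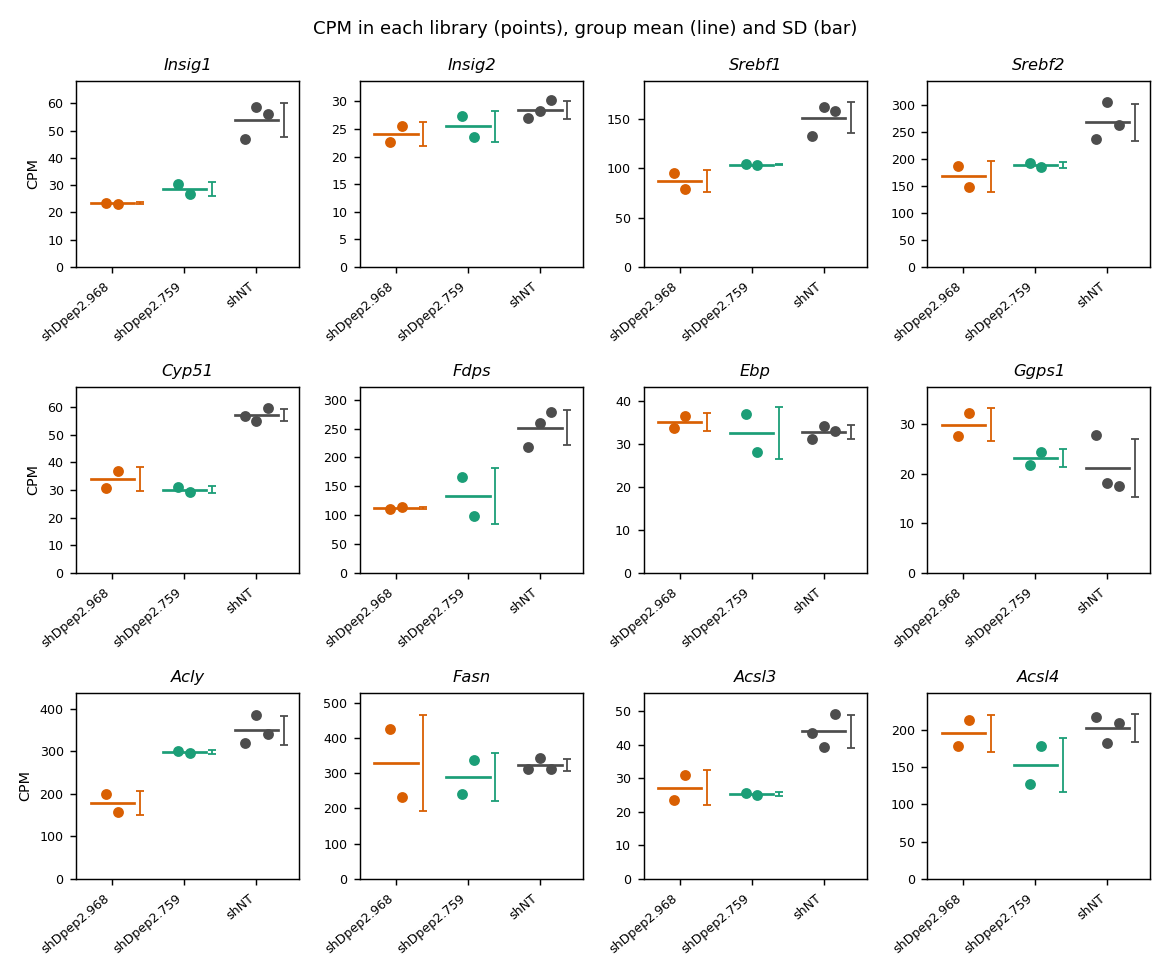
CPM of 12 members in each library, grouped as shDpep2.968 (n = 2), shDpep2.759 (n = 2) and shNT (n = 3), with the group mean as a line and the SD as a bar on axes that start at 0. Insig1, Srebf1, Srebf2, Cyp51, Fdps and Acsl3 show both hairpins below shNT, Acly is lowest with shDpep2.968, and Insig2, Ebp, Ggps1, Fasn and Acsl4 overlap between groups.

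In fatty acid synthesis 3 of 5 tested genes fell and none rose. Acly, which splits cytosolic citrate into acetyl-CoA, had 199 and 158 CPM in shDpep2.968 libraries, 301 and 295 CPM in shDpep2.759 libraries, and 320, 386 and 342 CPM under shNT. Acss2, which makes acetyl-CoA from acetate, had 10.6 and 11.2 CPM under shDpep2.968, 18.4 and 14.9 CPM under shDpep2.759, and 18.1, 27.3 and 27.0 CPM in the shNT libraries. Acaca, the carboxylase that makes malonyl-CoA, had 78.0 and 64.9 CPM in shDpep2.968 libraries, 77.7 and 80.0 CPM in shDpep2.759 libraries, and 105, 109 and 90.8 CPM under shNT. The shDpep2.968 libraries were the lowest for Acly and Acss2, and shDpep2.759 replicate 1 reached the shNT range for Acss2.

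On the log2 scale Acly fell by 0.60 (SE 0.11, edgeR adjusted p = 0.00698), Acss2 by 0.84 (SE 0.15, adjusted p = 0.00581) and Acaca by 0.44 (SE 0.11, adjusted p = 0.0259). Fitted with all hairpin libraries as 1 group, none of the 3 passed. Acly lost its call without shNT replicate 2, and Acaca without shDpep2.968 replicate 2 or without any one of the 3 shNT libraries. Fasn, the synthase that builds palmitate, had 426 and 232 CPM under shDpep2.968, 242 and 338 CPM under shDpep2.759, and 312, 342 and 313 CPM in the shNT libraries. Its hairpin libraries lay on both sides of the shNT libraries and its log2 fold change was -0.06, with a 95% interval of -0.50 to 0.38 that contains the value of Acaca. Whether Fasn differed from the called genes was not tested. Me1, the malic enzyme that supplies NADPH, was at 0.03 (95% interval -0.23 to 0.28).

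Of the 3 genes of acyl-CoA use, 1 fell. Acsl3, a ligase that activates fatty acids at the endoplasmic reticulum and on lipid droplets, had 23.5 and 30.9 CPM in shDpep2.968 libraries, 25.7 and 24.9 CPM in shDpep2.759 libraries, and 43.3, 39.4 and 49.0 CPM under shNT. It fell by 0.74 on the log2 scale (SE 0.13, edgeR adjusted p = 0.00361). Its relative Acsl4, which prefers arachidonate, was at -0.23 (95% interval -0.52 to 0.05), with overlapping groups, and Gpam, which starts glycerolipid synthesis, at -0.07 (95% interval -0.31 to 0.17).

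The steps differed in how much RNA they hold. Per kilobase of the longest annotated coding transcript, mean shNT levels were highest for Fdps (182 CPM per kilobase), Acly (78.9) and Srebf2 (52.8), and lowest among tested members for Gpam (4.43), Ggps1 (4.98) and Tm7sf2 (5.13). Summed CPM of the mevalonate genes was 295 to 378 with the Dpep2 hairpins and 479 to 556 with shNT, and of the squalene to cholesterol genes 334 to 372 with the hairpins and 471 to 518 with shNT. For the regulators the sums were 392 to 478 with the hairpins and 575 to 713 with shNT, and for the fatty acid genes 529 to 780 with the hairpins and 810 to 912 with shNT. In these 4 steps the sums did not overlap between groups. Those of the acyl-CoA genes, at 178 to 272 CPM with the hairpins and 248 to 288 CPM with shNT, did. The fatty acid sums were mostly Acly and Fasn, and for Fasn on its own the groups overlapped. How often sums over other genes separate in this way was not computed.

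Promoter letters of the members were also searched. Members were picked as genes of the SREBP programme, whose factors often bind beside NF-Y at CCAAT boxes. The shares below are therefore not independent of that choice. RefSeq promoter windows of 300 bases (250 before to 50 after an annotated start, build GRCm38.p6) were found for 30 of the 34 members, all except Fdps, Fdft1, Sqle and Stard4. A CCAAT box (CCAAT on either strand) lay in a window of 25 of the 29 tested members with one (86.2%), against 43.5% of 9665 tested genes with a window. It was in 15 of 16 called members, all but Acaca, and in 10 of the other 13. The sterol regulatory element letters TCACNCCAC, on either strand, were in the window of 1 member, Hmgcs1 (3.45%, against 1.35% of those genes), and the E-box CACGTG, its own reverse complement, in 5 (17.2%, against 11.9%). No 2 different motifs shared bases in the member windows, though in Fasn a forward and a reverse CCAAT box did. These are matches of letters, not binding sites.

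Printed 5′ to 3′ on the strand of the gene, with matches in capitals, are the windows of the 4 members with the smallest p that have one, and of Hmgcs1, added because it alone holds the sterol regulatory element letters. Insig1 (chr5:28071162-28071461, plus strand) holds 1 CCAAT box and the E-box. Cyp51 (chr5:4104648-4104947, minus strand) and Acsl3 (chr1:78657575-78657874, plus strand) hold 1 CCAAT box each, as does the most upstream of 3 Srebf1 windows (chr11:60222532-60222831, minus strand). Hmgcs1 (chr13:119690101-119690400, plus strand) holds 4 CCAAT boxes, and its TCACCCCAC begins 137 bases before the start.
Insig1: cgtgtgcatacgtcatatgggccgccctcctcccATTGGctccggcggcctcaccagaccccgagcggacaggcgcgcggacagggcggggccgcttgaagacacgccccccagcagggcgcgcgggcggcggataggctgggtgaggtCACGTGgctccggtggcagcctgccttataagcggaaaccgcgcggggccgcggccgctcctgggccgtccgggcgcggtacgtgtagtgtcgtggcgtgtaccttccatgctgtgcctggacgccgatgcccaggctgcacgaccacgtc
Cyp51: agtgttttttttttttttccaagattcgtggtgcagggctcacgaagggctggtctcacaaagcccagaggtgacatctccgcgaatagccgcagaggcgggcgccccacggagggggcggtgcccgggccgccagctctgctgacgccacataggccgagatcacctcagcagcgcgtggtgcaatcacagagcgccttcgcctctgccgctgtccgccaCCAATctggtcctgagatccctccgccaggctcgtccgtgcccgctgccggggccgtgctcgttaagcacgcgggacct
Srebf1: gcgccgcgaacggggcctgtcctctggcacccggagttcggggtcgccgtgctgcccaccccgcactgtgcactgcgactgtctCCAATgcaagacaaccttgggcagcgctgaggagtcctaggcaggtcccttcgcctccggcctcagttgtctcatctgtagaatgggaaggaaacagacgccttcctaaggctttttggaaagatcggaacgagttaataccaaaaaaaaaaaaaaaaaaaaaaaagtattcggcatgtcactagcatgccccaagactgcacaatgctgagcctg
Acsl3: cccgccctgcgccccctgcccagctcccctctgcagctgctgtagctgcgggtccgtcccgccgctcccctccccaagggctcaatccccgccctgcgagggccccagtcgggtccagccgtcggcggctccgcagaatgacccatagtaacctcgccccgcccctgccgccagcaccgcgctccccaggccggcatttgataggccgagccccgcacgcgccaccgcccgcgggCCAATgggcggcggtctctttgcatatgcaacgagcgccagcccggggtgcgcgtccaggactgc
Hmgcs1: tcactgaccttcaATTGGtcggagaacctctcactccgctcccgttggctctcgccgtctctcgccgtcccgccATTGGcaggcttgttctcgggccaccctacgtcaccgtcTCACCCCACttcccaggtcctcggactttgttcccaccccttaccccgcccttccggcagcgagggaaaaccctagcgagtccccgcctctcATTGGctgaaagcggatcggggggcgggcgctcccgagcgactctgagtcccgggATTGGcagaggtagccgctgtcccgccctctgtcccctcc

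The second comparison took each hairpin alone against the same 3 shNT libraries, which both comparisons share. With shDpep2.968, 17 of 33 tested members fell and none rose (2.96% of all tested genes were called lower and 2.29% higher). With shDpep2.759, 13 fell and none rose (2.00% lower and 2.72% higher). The members' median log2 fold change came to -0.67 for shDpep2.968 and -0.51 for shDpep2.759. Both lists held the same 12 genes: Fdps, Fdft1, Lss, Cyp51, Tm7sf2, Msmo1, Nsdhl, Dhcr7, Srebf1, Insig1, Stard4 and Acsl3. They made up 12 of the 17 and 12 of the 13. The shared shNT libraries link the lists, and the share of all tested genes called lower with both hairpins was not computed.

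The squalene to cholesterol genes had 7 calls with shDpep2.968 and 8 with shDpep2.759, the fatty acid genes 3 and 0. Cyp51 fell by 0.75 on the log2 scale with shDpep2.968 and by 0.92 with shDpep2.759, Insig1 by 1.20 and 0.91, and Fdps by 1.16 and 0.92 (edgeR adjusted p from 0.000843 to 0.0211). Acly, Acss2, Acaca, Hmgcs1 and Srebf2 were called with shDpep2.968 and not with shDpep2.759, and Sc5d the other way round. For Hmgcs1 the log2 fold changes with shDpep2.968 and shDpep2.759 were -0.78 and -0.46, for Srebf2 -0.67 and -0.50, for Acaca -0.51 and -0.37, and for Sc5d -0.36 with shDpep2.968 and -0.51 with shDpep2.759. These counts rest on few libraries. Dropping shDpep2.968 replicate 1 or 2 left 1 library of that hairpin, and the members' median log2 fold change was -0.62 each time. With shDpep2.759 replicate 1 or 2 dropped, the median for that hairpin was -0.53 and -0.43. Without shNT replicate 2 the 17 became 10, and without shNT replicate 3 it became 9. Lower calls over all genes then fell from 2.96% to 0.84% and 0.779%. The 13 became 5 and 3 without the same libraries, and the share over all genes fell from 2.00% to 0.885% and 0.726%. Member medians were then -0.58 and -0.60 with shDpep2.968, and -0.50 and -0.52 with shDpep2.759.

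**Figure D4:**
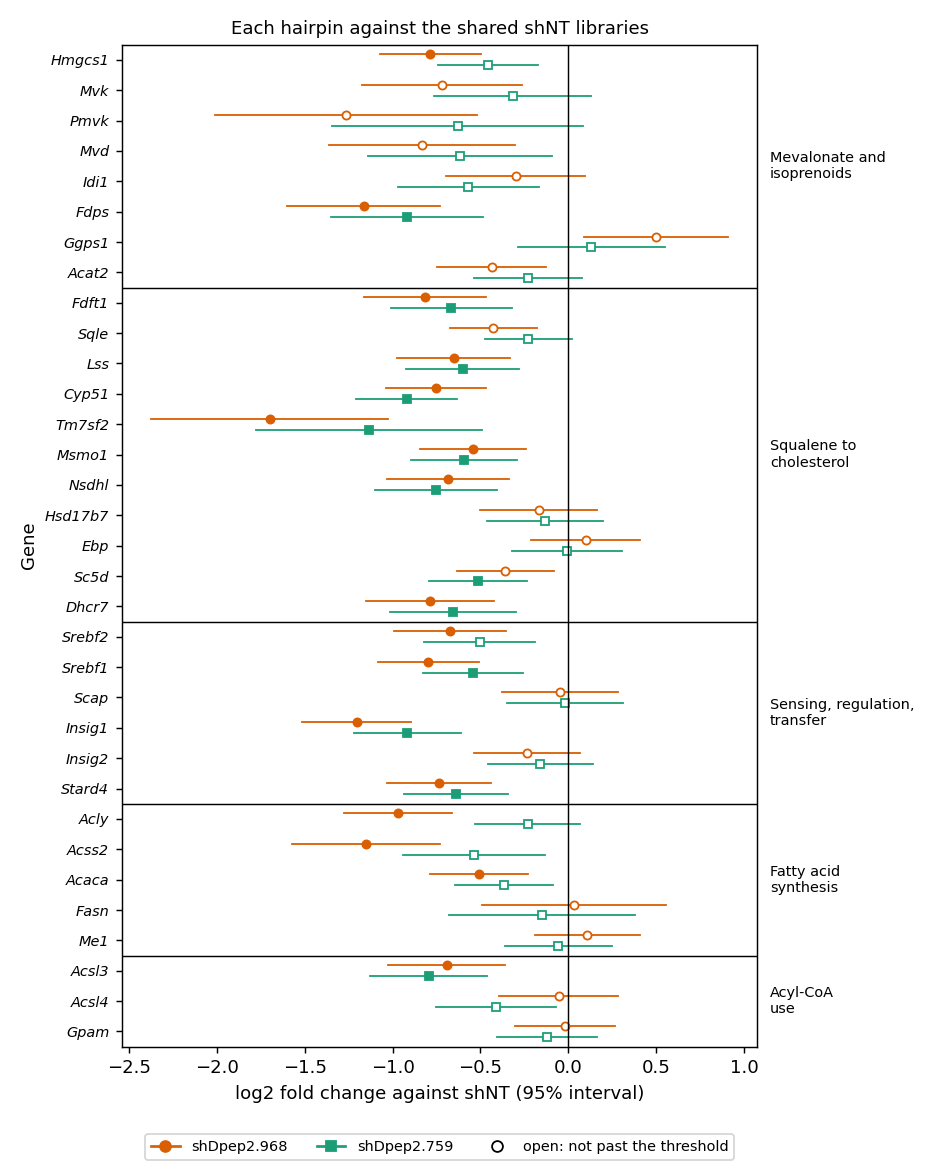
Log2 fold changes of shDpep2.968 (orange circles) and shDpep2.759 (green squares) against the shared shNT libraries, with 95% intervals, filled where the adjusted p was under 0.05. The intervals of the hairpins overlap for most members and are separate for Acly, at -0.97 with shDpep2.968 and -0.23 with shDpep2.759.

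Tested directly against each other, the hairpins differed in 1 of 33 members, Acly, against 0.840% of all tested genes called in either direction. Acly was lower with shDpep2.968 than with shDpep2.759 by a log2 difference of -0.74 (SE 0.15, 95% interval -1.07 to -0.41, edgeR adjusted p = 0.0401). It averaged 178 ± 28.9 CPM with shDpep2.968 (SD, n = 2), against 298 ± 4.16 CPM with shDpep2.759 (SD, n = 2). The shNT mean was 349 ± 33.8 CPM (SD, n = 3). Leaving out 1 library at a time ended the call in 6 of 7 cases, with adjusted p from 0.0569 (shNT replicate 1 absent) to 0.425 (shDpep2.968 replicate 2 absent), and it held when shDpep2.759 replicate 2 was the one removed. Acss2 had a difference of -0.61 (95% interval -1.07 to -0.16, adjusted p = 0.204) and Hmgcs1 one of -0.33 (95% interval -0.64 to -0.02, adjusted p = 0.309), neither past the threshold after adjustment. For Cyp51 it was 0.17 (95% interval -0.14 to 0.48), for Insig1 -0.29 (-0.62 to 0.04) and for Fdps -0.25 (-0.71 to 0.22). The intervals of Cyp51, Insig1 and Fdps include 0.

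Genes around the programme were read from other lists in the averaged comparison, where 4.15% of all tested genes were called lower and 3.44% higher. A list of other sterol genes, which also holds genes of other pathways such as the aldolase Aldoc, had 12 tested genes. Of these 6 fell and none rose (median log2 fold change -0.33), with 10 below 0 and 2 above. The 2 above were Tmem97 at 0.35 (edgeR adjusted p = 0.0966) and Soat1 at 0.23 (adjusted p = 0.323). Tmem97 had 62.7 to 81.1 CPM in the hairpin libraries and 45.7 to 62.5 CPM in the shNT libraries, ranges that do not overlap. Soat2, a cholesterol esterification enzyme, fell by 1.04 on the log2 scale (edgeR adjusted p = 0.00866), with 5.15 to 8.70 CPM in the hairpin libraries and 10.3 to 16.8 CPM in the shNT libraries. Aldoc, an aldolase, fell by 0.82 (adjusted p = 0.00683), and Lbr, which shares the sterol reductase activity of Tm7sf2, by 0.49 (adjusted p = 0.0126). Soat2 no longer passed once replicate 2 of shDpep2.968 or of shNT was removed, nor Lbr once shNT replicate 2 or 3 was. Of 16 genes supporting lipogenesis 2 fell and none rose. Slc25a1, the mitochondrial citrate carrier that feeds Acly, fell by 0.75 (adjusted p = 0.00184), with 45.8 to 61.3 CPM in the hairpin libraries and 76.0 to 96.3 CPM in the shNT libraries. Mid1ip1, a partner of Acaca related to Thrsp, fell by 0.59 (adjusted p = 0.0121) and missed the threshold on removal of replicate 2 of shDpep2.968 or of shNT, or of shNT replicate 3.

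The machinery that processes the SREBPs moved little by count. Of 14 genes 1 fell and 1 rose: Paqr3, a Golgi protein that tethers Scap and SREBP, fell by 0.68 on the log2 scale (edgeR adjusted p = 0.0140), and Erlin2, an endoplasmic reticulum protein that binds the SREBP complex, rose 1.34-fold (adjusted p = 0.0308). Both calls ended on removal of shDpep2.968 replicate 2 and likewise of shNT replicate 2 or 3. None of 9 promoter cofactor genes passed, with log2 fold changes of 0.11 for Nfya and 0.49 for Nfyc, both NF-Y subunits. None of 13 genes using isoprenoids passed either, with -0.33 for the prenyltransferase subunit Rabggta and -0.30 for Coq2 of ubiquinone synthesis. At an unadjusted p under 0.05 there were 1 cofactor gene and 2 isoprenoid genes by edgeR, against 3048 of all 13329 tested genes. Fatty acid oxidation genes had 1 lower and 1 higher of 18. Cpt1a, which admits fatty acids to mitochondria, rose 1.70-fold (adjusted p = 0.00113), with 57.4 to 84.6 CPM in the hairpin libraries and 41.2 to 44.1 CPM in the shNT libraries, and Echs1, an enzyme of the oxidation spiral, fell by 0.50 (adjusted p = 0.0453). The Echs1 call was lost when any 1 library except shDpep2.759 replicate 1 or shNT replicate 1 was left out.

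GC content varied with the fold change across all tested genes (Spearman -0.26 in the averaged comparison, over genes, which are not independent replicates). The tested members had a median GC content of 49.3%, against 49.7% of all tested genes, and with a GC and length correction 25 members were lower, against 8.65% of all genes tested in that fit.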

How the data were processed

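RNA was sequenced from 7 RAW264.7 libraries. Per the labels' protocols, total RNA was made into libraries with a kit that keeps the strand and both ends of fragments were read. The deposited table holds whole-number counts per gene symbol, with 16548648 to 18401060 counts per library. Trim Galore, Salmon and the human build hg38 are named per the submitters' processing notes, although the symbols are mouse. What is not given in the sources used here are the annotation, the strand setting, the tool versions and how Salmon estimates became whole numbers, and reads shared between near-identical genes could be split by such a method.

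Counts were filtered (filterByExpr), scaled by TMM and fitted in edgeR 4.0.16 (R 4.3.3) by a robust quasi-likelihood model with 3 group means and 4 residual degrees of freedom. P-values were Benjamini-Hochberg adjusted over all 13329 genes, with a threshold of 0.05, and counts of 1 gene varied between libraries by 13.8% beyond counting error (common dispersion). CPM values were made with edgeR from totals of the kept genes scaled by the TMM factors, and intervals are 95% from the fit. The 34 members and all other gene lists were chosen with earlier results of these data known, so no test was made of a list as a whole. All members are named or counted, with library values for those past the threshold in the averaged comparison and for the Insig and Srebf pairs; those of Pmvk, Ggps1 and Fasn were added after they were seen, as were the marker genes given with values. From each other list up to 3 called genes with the smallest p are named, or 2 where none passed. Tmem97 and Soat1 were added after their values were seen.

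No pair of replicates looked like 1 library deposited again: their chi-square divided by its degrees of freedom ran from 14.2 to 41 over genes with at least 10 summed counts. Transcript lengths and GC content came from GENCODE M21 and promoter windows from RefSeq on GRCm38.p6; both are used with gene symbols only, apart from the windows' own coordinates. Protein sequences were not used here. Alternatives covered size factors, library size alone, no filter, a filter of at least 1 CPM in 2 libraries, DESeq2 1.42.0, limma 3.58.1 with voom, no robust estimation, the replicate number as a block, a GC and length correction with splines of 5 degrees of freedom, hairpins as 1 group, only the groups compared, and each library left out.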

Additional observations from a re-analysis of the deposited data

Results flagged for a closer look

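Acly, the ATP citrate lyase, was the member for which the test of the difference between the hairpins passed the threshold. It was lower with shDpep2.968 than with shDpep2.759 by a log2 difference of -0.74 (edgeR adjusted p = 0.0401), with 199 and 158 CPM under shDpep2.968, against 301 and 295 CPM under shDpep2.759, and the same sign in every alternative. Besides the libraries named in the report, the call was lost with library size alone (adjusted p = 0.0575), without robust estimation (0.0672) and with the replicate block (0.0657).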

How the results depend on the processing

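The averaged comparison kept its count of lower members within 1.5 times of 19 under all 17 alternatives. It was 19 with DESeq2 size factors, 20 with library size alone, 22 with no low-count filter, 19 with a filter of at least 1 CPM in 2 libraries, 21 with DESeq2, 20 with limma-voom, 20 without robust estimation, 25 with the GC and length correction and 15 with all hairpin libraries as 1 group. Leaving out a library gave 13 to 22. Among the 19 called members, 10 stayed past the threshold in every alternative (Acsl3, Cyp51, Dhcr7, Fdft1, Fdps, Insig1, Nsdhl, Srebf1, Stard4 and Tm7sf2), and 9 lost the call in at least 1. With all hairpin libraries as 1 group, Acly, Acss2, Acaca and Mvd lost it. Of the 14 members not called, 7 passed in at least 1 alternative (Mvk, Pmvk, Idi1, Ggps1, Acat2, Sqle and Acsl4), and 4 changed sign in at least 1 without passing (Ebp, Scap, Fasn and Me1). No called value changed sign.

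For shDpep2.968 alone, leaving out a library gave 3 to 22 lower members, against 17. For shDpep2.759 alone it gave 3 to 13, against 13, and the GC and length correction gave 20. Between the hairpins, leaving out a library gave 0 to 3 members, against 1. That count was 0 with library size alone, 0 without robust estimation, 2 with no low-count filter and 2 with the GC and length correction. Lower calls over all genes also moved. With shDpep2.968 they were 0.84% and 0.779% without shNT replicate 2 and 3, against 2.96%. With shDpep2.759 they were 0.885% and 0.726%, against 2.00%. The causes were not tested. Where a hairpin kept 1 library, that library was assumed to vary like the other groups. Dpep2 kept its call in all 17 alternatives, at -1.50 to -1.32 on the log2 scale.

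Whether same-numbered libraries were paired could not be settled from correlations. In a group of 2 libraries the deviations from the mean mirror each other, so each value below has a fixed opposite. Deviations from the group means of same-numbered libraries correlated at 0.06 between the hairpins, and at -0.21, -0.15, -0.16 and -0.14 between a hairpin and shNT. With the replicate block, 13 members were lower in the averaged comparison, 11 with shDpep2.968 and 4 with shDpep2.759, 0 differed between the hairpins, and Dpep2 was at -1.47. Replicate number 3 exists in shNT alone, so the block fits that library exactly and it has no part in the group contrasts. Leaving out shNT replicate 3 without a block also gave 13 members in the averaged comparison. Over all genes in the averaged comparison, 553 were lower and 459 higher, against 218 and 186 with the block, 905 and 685 with no low-count filter, and 1118 and 1164 with the GC and length correction. Those totals were 289 and 251 with hairpins as 1 group, 182 and 174 without shNT replicate 2, and 165 and 156 without shNT replicate 3. At this depth Thrsp, with 0 or 1 count per library, could not be compared, and Tm7sf2 rested on the fewest counts of the tested members.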
